A study of Mus musculus with 18 samples.

Results

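The histone genes of the mouse were followed through a study of cyclin C loss. Members were all genes whose current mouse symbol starts with H1f, H2ac, H2bc, H3c or H4c followed by a number, together with H2ax, H2aw, H2az1, H2az2, H3f3a and H3f3b. The RefSeq gene table listed 76 such genes, and 19 of them were measured among the 17091 genes of the arrays. No measured member shared all its values with another, so 19 distinct genes were counted, and the other 57 were not analysed here. By family these were 7 H1, 4 H2A, 3 H2B, 3 H3 and 2 H4 genes. By kind they were 10 replication-dependent genes (H1f2, H1f4, H2aw, H2bc4, H2bc21, H2bc22, H3c14, H3c15, H4c8 and H4c9), 6 replacement genes (H1f0, H1f10, H2ax, H2az1, H2az2 and H3f3b) and 3 germline genes (H1f6, H1f7 and H1f8).

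RNA was measured on 18 arrays in 6 groups of 3, each numbered 1 to 3 as biological replicates. Cyclin C knockout (CCNC-/-) embryonic stem (ES) cells, primary embryonic fibroblasts (MEF) and brains of E18.5 embryos were each compared with wild-type samples of the same source, which the titles name controls. All groups shared the same extraction and oligo-dT labelling, and the labels list no treatment. The labels do not say how the allele was made, how many ES cell clones were used or whether brains were pooled, so p-values measure the spread between these samples.

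Histones package DNA into nucleosomes, which hold pairs of H2A, H2B, H3 and H4, while the linker histone H1 binds the DNA between them. Replication-dependent histone genes lie in clusters and are transcribed in S phase, and their mRNAs end in a stem-loop in place of a poly(A) tail. Most replacement histones are made throughout the cell cycle from polyadenylated mRNAs and enter chromatin outside replication. H2ax was placed among them by a list, and the form of its mRNA was not examined. Cyclin C activates CDK8 and CDK19, kinases that attach to Mediator, through which transcription factors act on RNA polymerase II. Labelling here started from poly(A), so a probe set for a replication-dependent gene reports mainly transcripts that carry such a tail.

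The promoters of 4 members are shown because they contrast a pair of near-identical H3 genes, of which a single member was called, with a replication-dependent H1 gene and a replacement H3 gene that were called in the same cells. Each line holds the 250 bases before the RefSeq start on GRCm38.p6, 5′ to 3′ on the strand of the gene. Capitals mark motifs searched on both strands: CCAAT, known from CCAAT boxes, TATAA with its variant form TATATA, known from TATA boxes, or the element AAACACA, known from H1 genes.
H3c15, chr3:96239128-96239377, minus strand: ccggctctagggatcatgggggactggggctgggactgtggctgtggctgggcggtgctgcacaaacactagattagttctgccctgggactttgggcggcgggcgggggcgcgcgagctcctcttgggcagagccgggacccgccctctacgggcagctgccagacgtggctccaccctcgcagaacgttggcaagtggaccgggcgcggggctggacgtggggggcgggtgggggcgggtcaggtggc
H3c14, chr3:96246435-96246684, plus strand: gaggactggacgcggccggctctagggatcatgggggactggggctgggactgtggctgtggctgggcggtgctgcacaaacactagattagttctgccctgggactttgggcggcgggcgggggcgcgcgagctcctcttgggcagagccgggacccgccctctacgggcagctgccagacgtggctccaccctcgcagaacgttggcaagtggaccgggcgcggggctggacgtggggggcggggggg
H1f2, chr13:23738557-23738806, plus strand: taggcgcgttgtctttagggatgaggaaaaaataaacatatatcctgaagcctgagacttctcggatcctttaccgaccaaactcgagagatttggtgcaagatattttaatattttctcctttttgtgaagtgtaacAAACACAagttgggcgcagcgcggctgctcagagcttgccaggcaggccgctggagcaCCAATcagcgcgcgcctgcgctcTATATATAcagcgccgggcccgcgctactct
H3f3b, chr11:116024505-116024754, minus strand: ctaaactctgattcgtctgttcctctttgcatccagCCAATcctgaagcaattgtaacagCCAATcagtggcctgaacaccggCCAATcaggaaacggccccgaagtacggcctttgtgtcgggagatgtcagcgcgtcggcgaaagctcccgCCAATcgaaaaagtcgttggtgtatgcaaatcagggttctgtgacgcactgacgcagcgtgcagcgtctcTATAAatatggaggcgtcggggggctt

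RefSeq promoters were matched for 16 of the 19 genes, and H2ax, H2bc21 and H2bc4 had no entry. H3c15 and H3c14 encode H3.2, and their 300-base windows, which add 50 bases after the start, were 99.6% identical over 285 aligned columns. Motifs were searched in the 250 bases before the start only, and none of the 4 was found in either gene. H3f3b, which encodes the replacement histone H3.3, held 4 CCAAT and 1 TATAA. H1f2, which encodes the somatic linker histone H1.2, held 1 CCAAT, 1 AAACACA and 2 overlapping TATATA. Over the 16 windows of 250 bases, CCAAT was found in 9 (33.8% of 32851 promoters of the same length), TATAA in 6 (22.8%), TATATA in 5 (5.2%) and AAACACA in 3 (6.2%). Hits of the TATA forms can overlap. A motif match is a run of letters and no measured site.

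Cell type markers followed the labelled sources. Mean log2 levels of 7 stem cell markers lay between 12.17 and 12.81 in ES cells against 6.27 to 6.42 in the other sources, 9 neuron markers between 11.96 and 12.22 in brain, and 9 fibroblast markers between 12.46 and 12.97 in fibroblasts. Ccnc fell to 19.4% of control in knockout ES cells (log2 fold change -2.37, SE 0.19, adjusted p = 0.0247) and to 40.8% in knockout fibroblasts (-1.29, SE 0.05, adjusted p = 6.77e-06, limma). In brain it measured 8.17, 8.08 and 8.37 in knockouts against 8.82, 8.65 and 9.24 in controls, 61.8% of control (adjusted p = 0.627), with no overlap. The deleted exons and the probe positions were not given, so what the signal left in knockouts stands for cannot be told, and the brain groups are knockout and control by their labels. Spread differed by source: the median SD of a histone gene was 0.185 in knockout and 0.237 in control ES cells, 0.103 in knockout and 0.145 in control fibroblasts, and 0.130 in knockout and 0.152 in control brain. Knockout ES cell array 1 stood apart in 10 endoderm markers, with a mean of 9.48 against 7.05 to 7.19 in the other knockout arrays and 6.89 to 7.36 in controls.

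In knockout fibroblasts 5 histone genes fell and 1 rose. The genes that fell were H3c15, H1f2, H2ax, H1f0 and H3f3b, to between 41.9% and 75.8% of control, and the gene that rose was H4c8, to 139.0%. These 6 of 19 (31.6%) stand beside 12.0% of all genes called in fibroblasts by limma at a Benjamini-Hochberg adjusted p below 0.05. In the downward direction 5 of 19 were called beside 4.93% of all genes, and in the upward direction 1 of 19 beside 7.11%. At an unadjusted p below 0.05 the count was 9 of 19, beside 26.6% of all genes. By kind, 3 of 6 replacement genes, 3 of 10 replication-dependent genes and 0 of 3 germline genes were called, the last with 1 below an unadjusted 0.05 (H1f6, in limma).

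**Figure D1:**
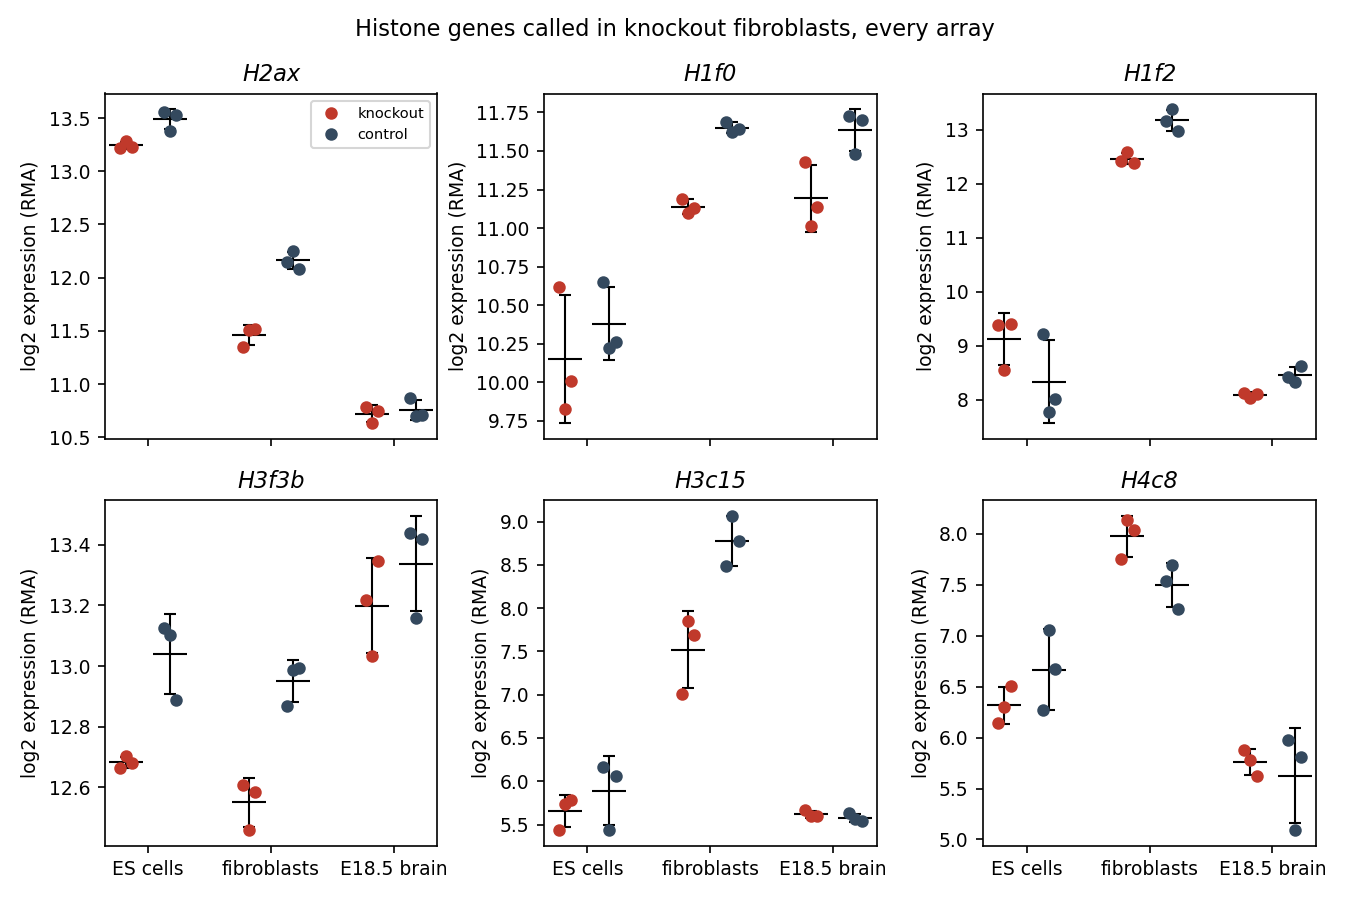
Log2 expression of the 6 histone genes called in knockout fibroblasts on every array, with knockout (red) left of control (blue) in ES cells, fibroblasts and E18.5 brain. Points are arrays, horizontal lines are means and bars are SD (n = 3); in fibroblasts the groups do not overlap for any of the 6, and H4c8 is the one that lies higher in knockouts.

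Among the replacement genes, H2ax encodes the H2A form whose phosphorylation marks DNA double-strand breaks. It measured 11.35, 11.51 and 11.52 in knockout fibroblasts against 12.15, 12.25 and 12.08 in controls. Every knockout array lay below every control array, by a mean of -0.70 on the log2 scale (SE 0.06, adjusted p = 0.000372), or 61.5% of control. The probe set for H1f0, a linker histone that builds up in cells that have left the cycle, gave 11.19, 11.10 and 11.13 in knockouts against 11.69, 11.62 and 11.64 in controls. The groups lay apart with little spread in either (-0.51, SE 0.05, adjusted p = 0.000372, 70.1% of control). H3f3b measured 12.61, 12.46 and 12.59 in knockouts against 12.87, 12.99 and 12.99 in controls, again with no overlap (-0.40, SE 0.05, adjusted p = 0.00252).

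The other 3 replacement genes were not called in fibroblasts. H2az1 and H2az2, which encode the H2A.Z forms found at promoters, had differences of -0.17 (SE 0.12, adjusted p = 0.426) and -0.03 (SE 0.06, adjusted p = 0.790). H1f10, a further linker histone, differed by 0.07 (SE 0.09, adjusted p = 0.681).

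Of the replication-dependent genes, H3c15 had the largest difference in fibroblasts. It measured 7.01, 7.85 and 7.69 in knockouts against 8.48, 9.06 and 8.78 in controls. The highest knockout array stayed below the lowest control array (-1.26, SE 0.20, adjusted p = 0.00505, 41.9% of control). Its near copy H3c14 measured 8.60, 8.87 and 8.92 in knockouts against 8.79, 8.78 and 9.01 in controls, and the groups overlapped (-0.07, SE 0.09, adjusted p = 0.721). Within each array, the log2 difference of the H3c15 from the H3c14 probe set was -1.59, -1.02 and -1.22 in knockout fibroblasts against -0.31, 0.28 and -0.23 in controls. The groups did not overlap. The pair was set side by side because H3c15 was called and H3c14 was not, so these values describe that contrast and add no test of it. Probe positions were not given, so signal of either gene on the probes of the other cannot be told apart.

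H1f2 measured 12.43, 12.58 and 12.39 in knockout fibroblasts against 13.15, 13.38 and 12.98 in controls. All knockout arrays lay lower (-0.71, SE 0.09, adjusted p = 0.00188, 61.3% of control). H4c8, a histone H4 gene, measured 7.75, 8.14 and 8.04 in knockouts against 7.54, 7.69 and 7.26 in controls, with the knockouts higher by a narrow gap (0.48, SE 0.12, adjusted p = 0.0354). That call was lost without control array 1 (adjusted p = 0.0749), control array 3 (0.111), knockout array 2 (0.138) or knockout array 3 (0.0887). H4c8 was also dim, at percentile 34.8 of all genes in control fibroblasts. A filter at percentile 40 of the 17091 genes removed it and left 5 of 12 members called, 0 of them higher. Among all genes kept 2185 were called, 1376 of them higher. The share of kept genes called is not given, so these counts describe the filter and are no result about the members. H4c9, the other H4 gene, measured 7.95, 8.63 and 8.71 in knockouts against 8.66, 9.08 and 8.91 in controls and overlapped (-0.45, SE 0.18, adjusted p = 0.142). Without knockout array 1 the H4c9 difference was -0.21. H4 genes encode the same protein and are alike in sequence, so sharing between their probe sets is uncertain too.

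H2bc4, an H2B gene, measured 12.36, 12.45 and 12.09 in knockout fibroblasts against 12.62, 12.82 and 12.42 in controls, with 1 knockout array above the lowest control (-0.32, SE 0.11, adjusted p = 0.0879). H2aw, a replication-type H2A gene, differed by -0.16 (SE 0.08, adjusted p = 0.203), and by -0.10 without control array 2 or knockout array 1. H1f4, H2bc21 and H2bc22 differed by between -0.15 and -0.12, none called. In control fibroblasts they were dim, at percentiles 6.93, 17.54 and 9 of all genes, so a fall could be missed. The germline linker genes H1f6, H1f7 and H1f8, known from spermatids and oocytes, differed by 0.15, 0.08 and 0.02. Their signal was low too, at percentiles 32.46, 12.8 and 18.72 in control fibroblasts. H1f6 measured 7.58, 7.50 and 7.46 in knockouts against 7.36, 7.38 and 7.36 in controls, apart but not called (SE 0.06, adjusted p = 0.155).

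Over all 19 genes, 14 had a lower mean in knockout fibroblasts, beside 45.6% of all genes. The median difference was -0.15 for the histone genes and 0.01 for all genes. Groups did not overlap for 5 genes downward and 2 upward, beside 12.5% and 18.4% of all genes. In 1 fit of all 18 arrays, which shares the spread of the ES cell arrays, H2ax, H3f3b and H3c15 were called in fibroblasts. H1f0 (adjusted p = 0.203), H1f2 (0.357) and H4c8 (0.466) were not. That fit called 210 of 17091 genes in fibroblasts, against 2058 in the fit of fibroblasts alone, so calls were lost among all genes too.

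The labels do not say what a replicate number marks, and deviations of same-numbered arrays correlated positively in all 3 sources. Pairing by number is thus an assumption. Under it, the knockout minus control difference was also taken number by number in fibroblasts and brain. With the number as a block in fibroblasts, 9 histone genes were called (8 lower and 1 higher) beside 17.3% of all genes (7.03% and 10.3%), adding H2bc4 (adjusted p = 0.000442), H4c9 (0.00307) and H2az1 (0.0258). H2bc4 differed by -0.26, -0.37 and -0.33 in the arrays numbered 1, 2 and 3, and H4c9 by -0.71, -0.45 and -0.20. Each pair of both genes was lower in knockouts. For H3c15 the differences were -1.47, -1.21 and -1.09, for H1f0 -0.50, -0.53 and -0.51, and for H4c8 0.21, 0.44 and 0.77.

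**Figure D2:**
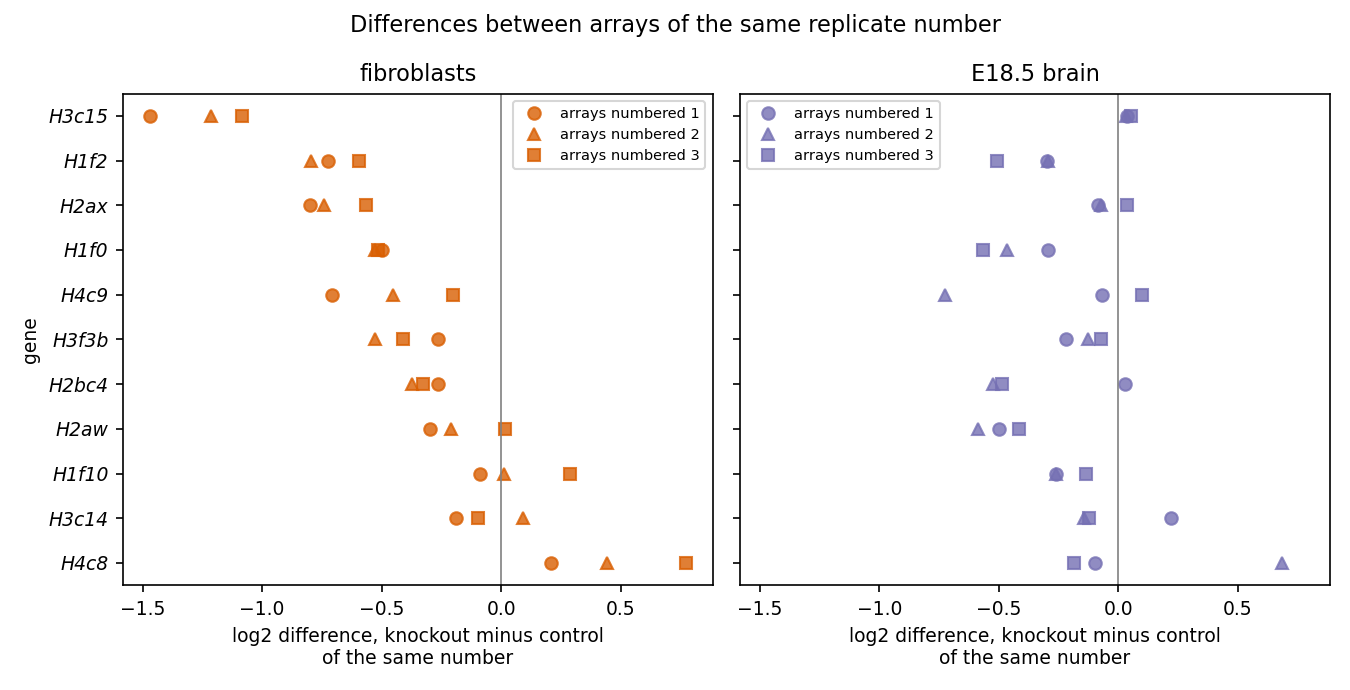
Knockout minus control log2 difference between arrays of the same replicate number for 11 histone genes in fibroblasts (left) and E18.5 brain (right), 1 marker shape per number. In fibroblasts all 3 differences are below 0 for H3c15, H1f2, H2ax, H1f0, H4c9, H3f3b and H2bc4, and all 3 are above 0 for H4c8; in brain all 3 are below 0 for H1f2, H1f0, H3f3b, H2aw and H1f10.

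Other measures moved with the knockout in fibroblasts. The 9 fibroblast markers averaged 12.46 to 12.51 in knockouts against 12.89 to 12.97 in controls (6 of 9 fell), and 6 smooth muscle markers averaged 12.07 to 12.29 in knockouts against 11.64 to 11.88 in controls (3 of 6 rose). The control probe set for the middle of 18S ribosomal RNA, which has no poly(A) tail, read 7.17, 7.69 and 7.62 in knockouts against 6.38, 6.68 and 7.01 in controls, and the mean of 3 such probe sets overlapped. The part of these measures in the histone differences was not tested. In bulk RNA, fewer cells of a type and less RNA per cell cannot be told apart.

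In knockout ES cells no histone gene passed the adjusted test (0 of 19 by limma, beside 0.0117% of all genes), and 3 had an unadjusted p below 0.05 beside 8.5% of all genes. The largest downward differences were in H1f10, H2aw and H3f3b, each with knockout and control arrays apart. Of 19 genes, 14 had a lower knockout mean beside 57.3% of all genes, and the median difference was -0.18 beside -0.03.

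H1f10 measured 10.64, 10.46 and 10.33 in knockout ES cells against 11.27, 10.90 and 11.09 in controls. All knockout arrays were lower, at 65.7% of control (-0.61, SE 0.14, adjusted p = 0.504). H3f3b measured 12.67, 12.70 and 12.68 in knockouts against 13.13, 13.10 and 12.89 in controls, also apart (-0.36, SE 0.09, adjusted p = 0.522). For H2ax the knockouts gave 13.22, 13.28 and 13.23 against 13.56, 13.38 and 13.53 in controls (-0.24, SE 0.08, adjusted p = 0.547). H2aw gave 8.55, 7.96 and 8.55 in knockouts against 9.15, 8.62 and 8.74 in controls (-0.48, SE 0.21, adjusted p = 0.591), and -0.29 without knockout array 2. These 4 were the genes whose groups did not overlap, all downward, beside 9.30% of all genes.

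H1f2 had the largest upward difference in ES cells, and it overlapped: 9.39, 8.56 and 9.41 in knockouts against 9.22, 7.79 and 8.02 in controls (0.78, SE 0.40, adjusted p = 0.615). Control array 1 lay beside the knockouts, and the difference was 1.22 without it and 0.50 without control array 2. H2bc4 showed a like scatter, with 9.36, 9.27 and 9.57 in knockouts against 9.80, 8.37 and 8.96 in controls (0.36, SE 0.33, adjusted p = 0.766). H2az1 was the most scattered member, with 13.60, 14.02 and 13.48 in knockouts against 13.87, 14.33 and 12.13 in controls. Leaving out both ES cell arrays numbered 1, which include the array with high endoderm markers, again gave 0 called histone genes. The 3′ probe set of 18S ribosomal RNA read 9.97, 10.87 and 9.99 in knockout ES cells against 11.29, 11.00 and 11.15 in controls. The 5′ set, the middle set and the mean of all 3 overlapped between the groups (mean lower by -0.88 in knockouts), and their part in these differences was not tested.

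In knockout brain no histone gene passed the adjusted test (0 of 19 by limma, beside 0.00585% of all genes), and 3 had an unadjusted p below 0.05 beside 7.3% of all genes. These 3 were H2aw, H1f2 and H1f0, whose knockout arrays all lay below the controls, as was so for 6.06% of all genes. Of 19 genes, 13 had a lower knockout mean beside 49.5% of all genes, and the median difference was -0.06 beside 0.00.

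H2aw measured 10.01, 9.86 and 9.95 in knockout brains against 10.51, 10.45 and 10.37 in controls. The gap between the groups was larger than the range within either (-0.50, SE 0.09, adjusted p = 0.554, 70.6% of control). With the replicate number as a block it was called (adjusted p = 0.0481), as 1 of 19 histone genes beside 0.0878% of all genes. H1f0 measured 11.43, 11.01 and 11.13 in knockout brains against 11.72, 11.48 and 11.70 in controls (-0.44, SE 0.13, adjusted p = 0.627), and its block gave an adjusted p of 0.0972. H1f2 measured 8.13, 8.03 and 8.12 in knockouts against 8.42, 8.33 and 8.63 in controls (-0.37, SE 0.10, adjusted p = 0.627), and its block gave 0.156.

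Of the 6 genes called in fibroblasts, H1f0 and H1f2 were thus also lower without overlap in brain, and H2ax, H3c15, H3f3b and H4c8 overlapped there. H2ax measured 10.79, 10.63 and 10.75 in knockout brains against 10.87, 10.70 and 10.71 in controls (-0.04, SE 0.09, adjusted p = 0.945). H3c15 measured 5.67, 5.60 and 5.59 in knockouts against 5.63, 5.57 and 5.54 in controls (0.04, SE 0.07, adjusted p = 0.920). Both overlapped, and H3c15 sat near the low end of the arrays in either genotype of brain. H2bc21 differed by -0.32 (SE 0.14, adjusted p = 0.683), H1f10 by -0.22 (SE 0.11, adjusted p = 0.716) and H3f3b by -0.14 (SE 0.12, adjusted p = 0.819). H1f7 was the upward gene without overlap, as 7.98% of all genes were (0.17, SE 0.08, adjusted p = 0.714). On leaving out 1 array, H2bc21 came to -0.21 (without knockout array 3), H1f7 to 0.11 (without knockout array 2) and H3f3b to between -0.23 (without control array 2) and -0.06 (without knockout array 2).

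**Figure D3:**
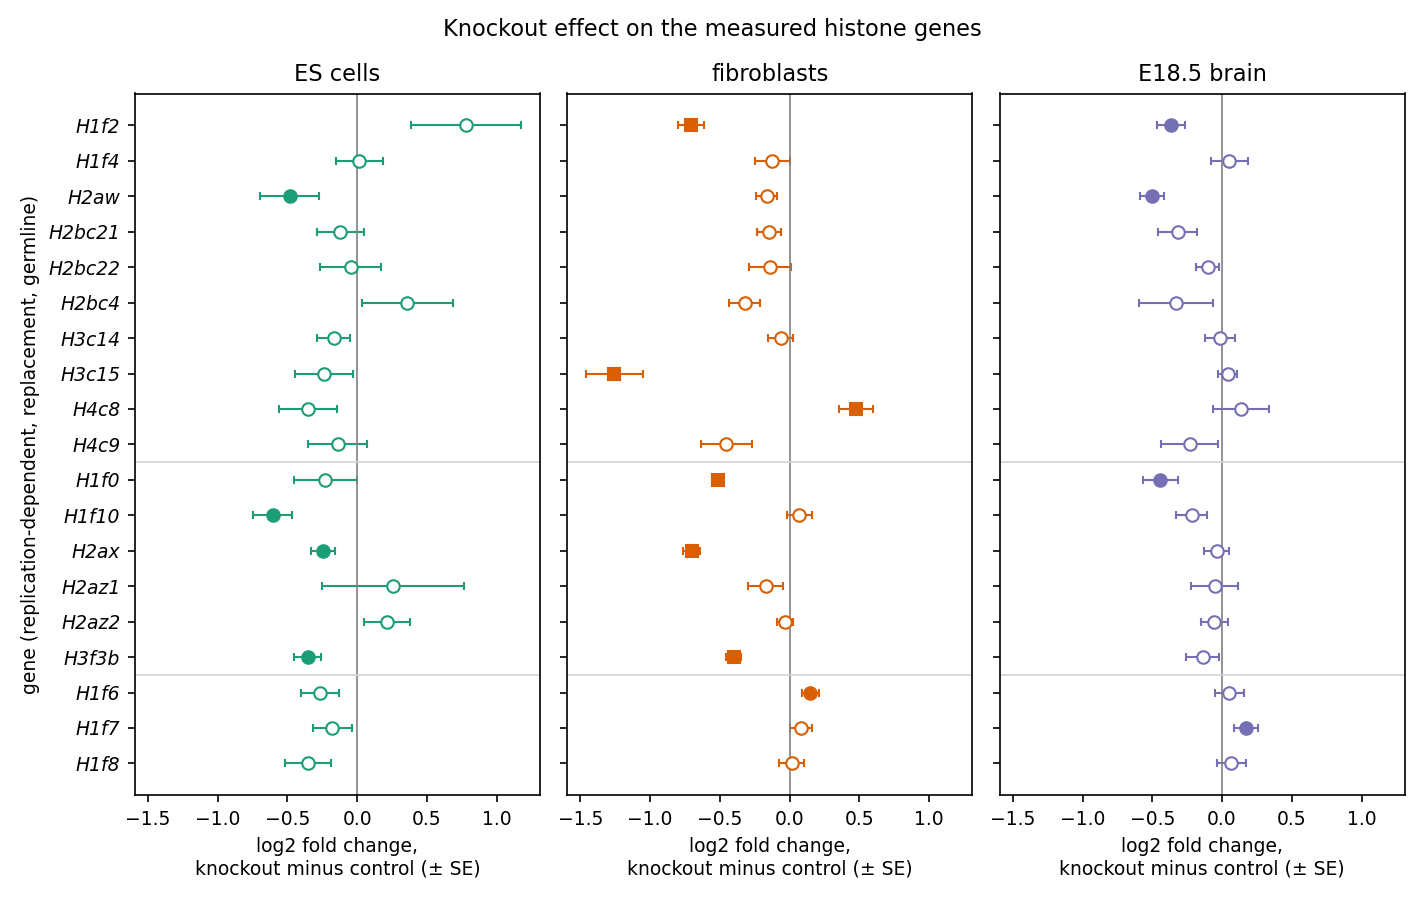
Log2 fold change, knockout minus control, with its SE for the 19 measured histone genes in ES cells, fibroblasts and E18.5 brain, grouped as replication-dependent, replacement and germline genes from top to bottom. Squares are called genes and filled symbols are genes whose groups do not overlap; the 6 squares all lie in the fibroblast panel, with H3c15 farthest left and H4c8 on the right.

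Differences between the knockout effects were tested on all 18 arrays together. For fibroblasts minus brain, 1 of 19 histone genes was called beside 0.334% of all genes: H2ax, whose effect was lower in fibroblasts by -0.66 (SE 0.11, adjusted p = 0.0180). The call was lost without fibroblast control array 1 (adjusted p = 0.0502), fibroblast control array 2 (0.0606), fibroblast knockout array 2 (0.0518) or brain knockout array 1 (0.0533). H3c15 had the largest difference of effects here, -1.30 (SE 0.29, adjusted p = 0.0706). It stood at 5.58, percentile 8.76 of all genes, in control brain, where a fall could hardly be seen. For fibroblasts minus ES cells, 0 of 19 were called by limma beside 0.995% of all genes, with 6 at an unadjusted p below 0.05 beside 14.2% of all genes. The smallest p belonged to H2ax (-0.46, SE 0.11, adjusted p = 0.0580), H1f10 (0.68, SE 0.17, adjusted p = 0.0741) and H1f2 (-1.49, SE 0.39, adjusted p = 0.0814). For brain minus ES cells, 0 of 19 were called by limma beside 0.275% of all genes, with 5 at an unadjusted p below 0.05 beside 15% of all genes, led by H1f2 (-1.15, SE 0.39, adjusted p = 0.183). This fit shares 1 spread among sources, although ES cell arrays varied more.

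Genes that supply and handle histones were read beside the members. Of 29 listed, 27 were measured, and in knockout fibroblasts 5 fell and 2 rose beside 4.93% and 7.11% of all genes. Npat, which carries the cyclin E signal to histone gene transcription, measured 8.78, 8.75 and 8.76 in knockouts against 9.28, 9.41 and 9.33 in controls, well apart (-0.57, SE 0.05, adjusted p = 0.000406). Casp8ap2, needed for histone mRNA 3′ end processing, fell by 0.37 (SE 0.08, adjusted p = 0.0206). The H3-H4 chaperones Asf1a and Asf1b fell by 0.39 (adjusted p = 0.00635) and 0.20 (adjusted p = 0.0335), and the H1 and H3-H4 chaperone Nasp fell by 0.34 (adjusted p = 0.0169).

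The 2 genes that rose were Lsm11, a subunit of the U7 particle that cleaves histone pre-mRNA, by 0.21 (adjusted p = 0.0413), and Upf1, a helicase used in histone mRNA decay, by 0.27 (adjusted p = 0.0491). Lsm11, Upf1 and Slbp are named after their values were seen. Slbp, which binds the histone stem-loop, differed by -0.24 (SE 0.07, adjusted p = 0.0573). The median of the list was -0.06. The count of 7 called supply genes became 3 without fibroblast control array 1 and 2 without control array 2, control array 3 or knockout array 2, and Npat and Asf1a stayed called on leaving out each fibroblast array. With the replicate block 12 supply genes were called, 9 lower and 3 higher, beside 7.03% and 10.3% of all genes. In 1 fit of all 18 arrays Npat alone was called, beside 210 of 17091 genes.

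Of 28 S phase genes 26 were measured, with Slbp in both lists, and 9 fell and 0 rose in knockout fibroblasts beside 4.93% and 7.11% of all genes (17 lower and 0 higher at an unadjusted p below 0.05 in limma, beside 26.6% of all genes in either direction). Ccne2, a cyclin E that drives entry into S phase, measured 7.83, 7.57 and 7.65 in knockouts against 8.82, 9.23 and 8.83 in controls (-1.28, SE 0.11, adjusted p = 0.000372). Ccna2, the S phase cyclin A, fell by 0.41 (adjusted p = 0.00258). In 1 fit of all 18 arrays 2 of the 9 were called, beside 210 of 17091 genes. The ribonucleotide reductase subunits Rrm1 and Rrm2 fell by 0.40 and 0.48, and the DNA polymerase subunit Pola1 by 0.44. The mean of the 26 genes lay between 9.56 and 9.67 in knockout fibroblasts against 9.80 to 9.89 in controls, and its part in the histone differences was not tested.

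In ES cells and brain, 0 genes of either list were called by limma. At an unadjusted p below 0.05, 0 supply and 2 S phase genes stood in ES cells (Prim1 lower and Cdk2 higher in knockouts) and 1 supply and 3 S phase genes in brain (Daxx lower, and Mcm4, Mcm6 and Ung higher, in knockouts), all named after their values were seen. The median difference was -0.11 for the supply list and -0.16 for the S phase list in ES cells, and -0.03 and 0.06 in brain. Npat differed by 0.07 in ES cells and 0.10 in brain, and Ccne2 by 0.04 and -0.30.

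**Figure D4:**
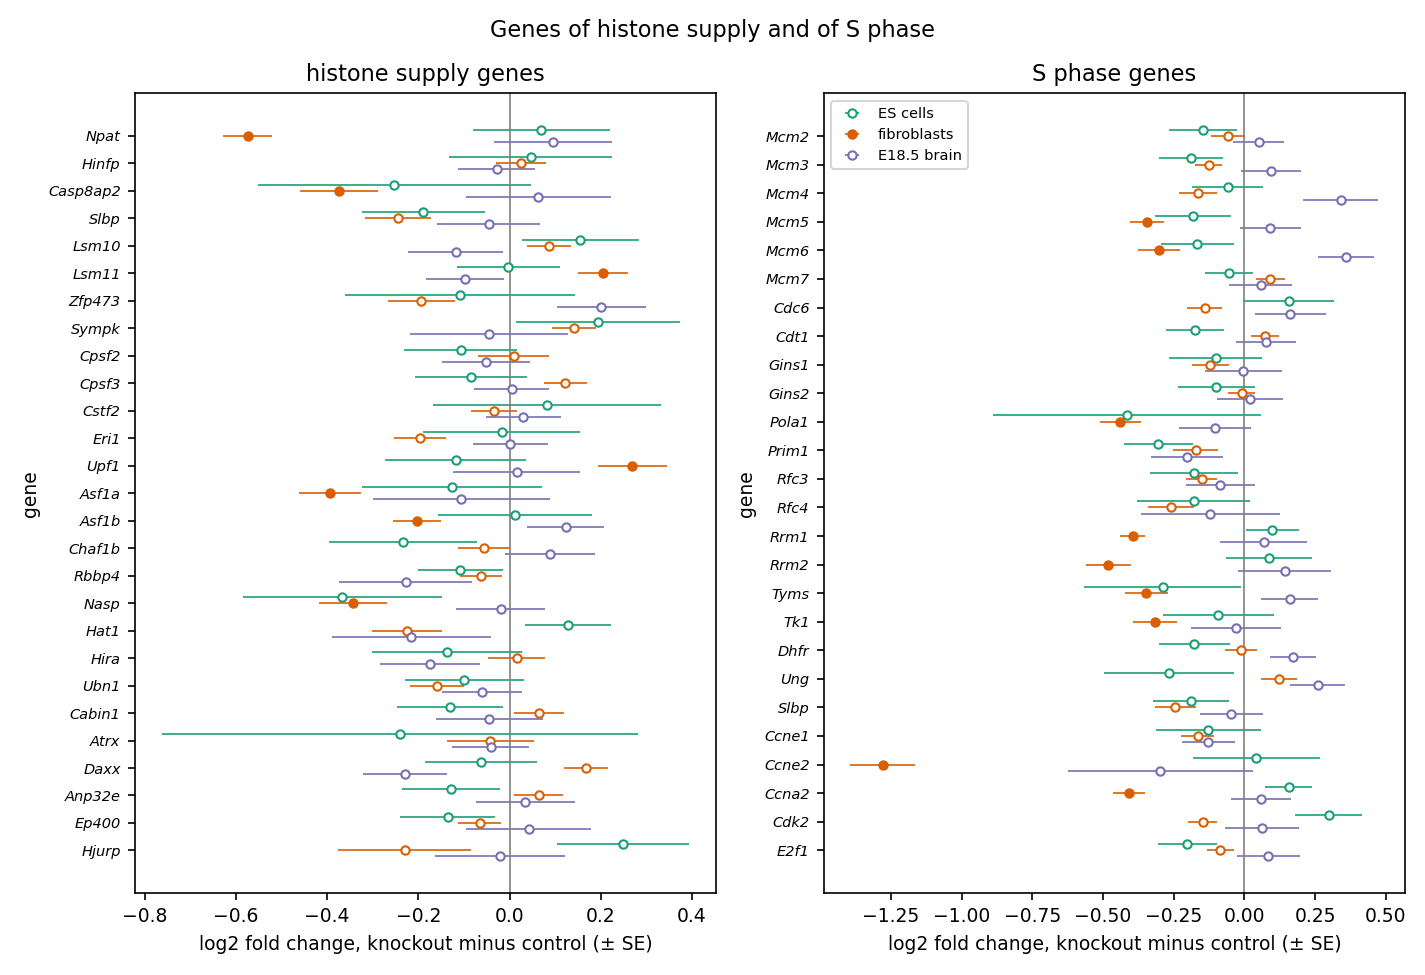
Log2 fold change, knockout minus control, with its SE for 27 histone supply genes (left) and 26 S phase genes (right) in ES cells (green), fibroblasts (orange) and E18.5 brain (purple). Filled points are called genes, all of them in fibroblasts, where Npat and Ccne2 lie farthest left.

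Across the 6 fibroblast arrays, the 5 genes whose levels ran closest to H2ax by Pearson correlation were Uspl1 (0.9986), Gnai1 (0.9964), Wapl (0.9962), Klf12 (0.9962) and Ptger4 (0.9954). The arrays share the genotype difference, and the values are a description over 6 arrays.

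Without the knockout, the histone genes differed widely between sources, as most genes did. Between control arrays 14 of 19 were called in each comparison, beside 73.7% of all genes for brain minus ES cells, 60.3% for brain minus fibroblasts and 63.5% for ES cells minus fibroblasts. The median of all genes was -0.23, -0.11 and 0.14 in these comparisons and -0.07, -0.06 and 0.03 after quantile normalization. For brain minus ES cells 4 were higher and 10 lower, beside 25.9% and 47.8% of all genes. For brain minus fibroblasts 5 were higher and 9 lower, beside 25.1% and 35.2%, and for ES cells minus fibroblasts 6 were higher and 8 lower, beside 39.8% and 23.8%. Source and array batch cannot be told apart.

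H2ax averaged 10.76 in control brain, 13.49 in control ES cells and 12.16 in control fibroblasts, and each neighbouring pair was apart. Brain was lower than ES cells by -2.73 (SE 0.08, adjusted p = 3.84e-10), and ES cells were higher than fibroblasts by 1.33 (SE 0.08, adjusted p = 1.78e-07). H1f2 averaged 8.46 ± 0.15 in control brain, 8.34 ± 0.77 in control ES cells and 13.17 ± 0.20 in control fibroblasts (SD, n = 3). It stood high in fibroblasts, while brain and ES cells did not differ beyond their spread (0.12, SE 0.30, adjusted p = 0.732). H2bc4 and H3c15 were highest in fibroblasts too, and lower than there by -4.52 and -3.20 in brain and by -3.58 and -2.88 in ES cells. Between brain and ES cells, H2bc4 was lower in brain by -0.94 (SE 0.32, adjusted p = 0.0210), and H3c15 did not pass the test (-0.31, SE 0.19, adjusted p = 0.162).

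Other members stood high elsewhere. H2aw averaged 10.44 ± 0.07 in control brain, 8.84 ± 0.28 in control ES cells and 9.84 ± 0.12 in control fibroblasts, and H2bc21 was likewise highest in brain, by 1.54 over ES cells and 0.92 over fibroblasts. H1f0 was higher in brain than in ES cells by 1.25 (adjusted p = 2.50e-06) and did not pass the test between brain and fibroblasts (-0.02, SE 0.12). The germline genes H1f6, H1f7 and H1f8 were higher in ES cells than in fibroblasts by 0.52, 0.43 and 0.83. Even in control ES cells they stood at percentiles 40.7, 16.78 and 30.48 of all genes. H2az1 was called in no comparison between controls, at 13.48 ± 0.37 in control brain, 13.44 ± 1.16 in control ES cells and 13.32 ± 0.19 in control fibroblasts. H2az2 was higher than in fibroblasts by 1.10 in brain and by 1.63 in ES cells.

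**Figure D5:**
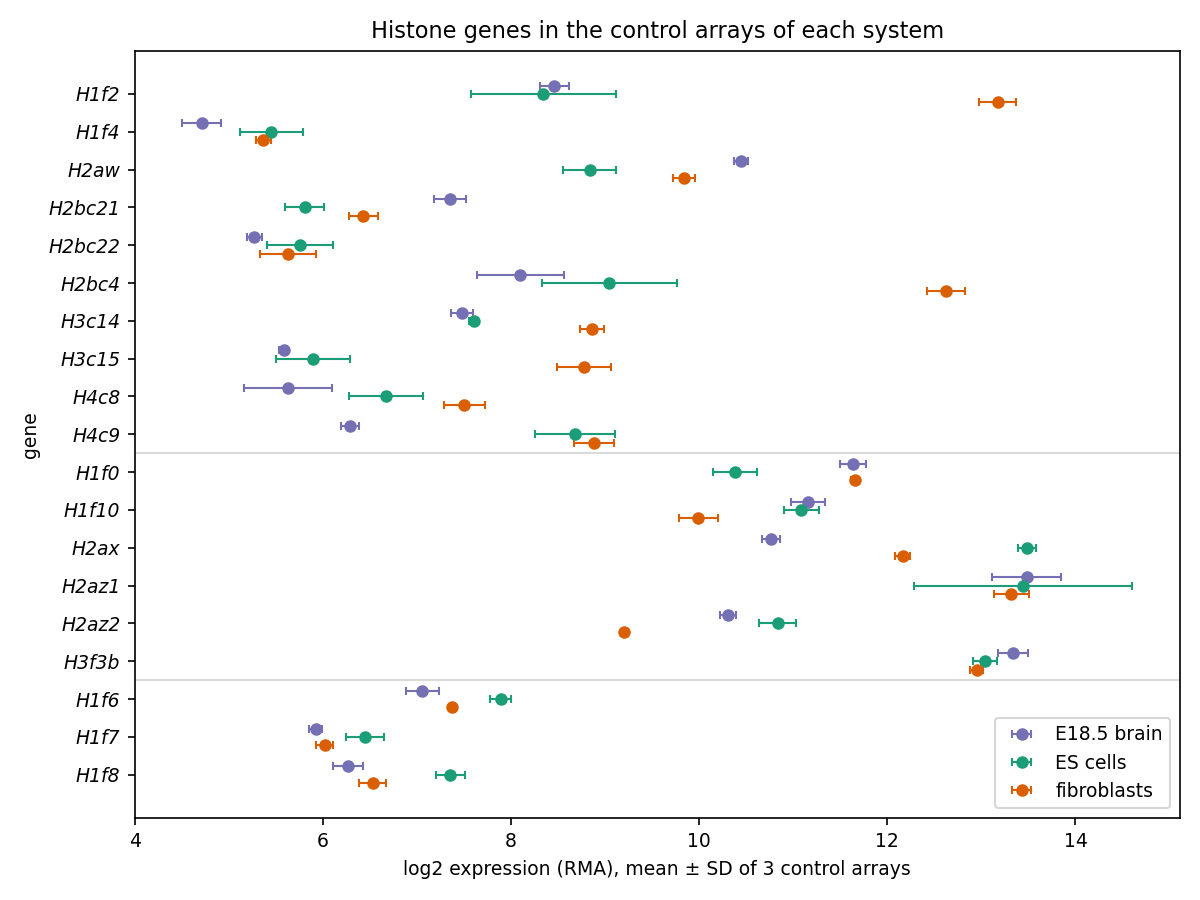
Mean log2 expression with SD of the 3 control arrays of E18.5 brain, ES cells and fibroblasts for the 19 measured histone genes. H1f2, H2bc4, H3c14 and H3c15 lie farthest right in fibroblasts, H2aw and H2bc21 in brain and H2ax in ES cells; levels of different genes come from different probe sets and are not compared.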

How the data were processed

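Expression was measured on 18 arrays, and the authors deposited log2 values of 24185 probe sets made with RMA, per the submitters' processing notes; array type, chip definition and joint normalization were not given. Array distributions are made alike by RMA, so a shift shared by most genes would not be seen. Of these, 64 control probe sets were set aside. Names came from RefSeq GRCm38.p6, and the probe set with the highest mean stood for a gene. Each source was fitted alone with limma 3.58.1 (intensity trend) in R 4.3.3, tested on simulated data, with Benjamini-Hochberg adjustment over 17091 genes; 18 arrays gave differences of effects and 9 control arrays the source comparisons. Arrays have no depth, so 3 per group limit precision. Deviations of same-numbered arrays correlated at 0.363, 0.165 and 0.19 in fibroblasts and 0.287, 0.35 and 0.469 in brain, which were taken as paired from the values. In ES cells, which were not taken as paired, they correlated at 0.374, 0.318 and 0.081, not clearly lower than in fibroblasts. Pairing is thus an assumption. The block in ES cells called 0 histone genes and 1 of all genes. Members, lists and the rule for named genes (called members, the 10 smallest p per comparison, replacement histones, control extremes, the 5 smallest p of each list and of each difference) were chosen with earlier results of these data known. Alternatives were the block, 1 fit of all arrays, mean of probe sets, a filter at percentile 40, quantile normalization, median centring, other priors and leaving out arrays; all of them for the supply and S phase counts were added after seeing the data. Figures used matplotlib 3.10.9.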

Additional observations from a re-analysis of the deposited data

Results flagged for a closer look

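The knockout effect on H2ax differed between fibroblasts and brain by -0.66 on the log2 scale (limma over 18 arrays, SE 0.11, adjusted p = 0.0180), lower in 3 of 3 knockout fibroblast arrays than in any control, while knockout and control brains overlapped. The middle 18S ribosomal RNA control probe set, outside the gene tests, was higher in knockout than in control fibroblasts by 0.80. There 3 of 3 knockout arrays lay above every control (exact two-sided permutation p = 0.1, the smallest possible). The 3′ set, the 5′ set and the mean of the 3 sets overlapped in fibroblasts. Only upward 18S separations were flagged, and the 3′ set in ES cells was lower in knockouts without overlap (-0.87). For these flagged results, groups of 3 arrays were not searched for single outlying arrays. Knockout ES cell array 1 and fits without single arrays are described elsewhere in the text.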

How the results depend on the processing

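Of 175 recomputed counts of called histone genes, 155 stayed within 1.5 times the reported count. In 1 fit of all 18 arrays, 2 were called in ES cells (H1f10 and H3f3b) and 3 in fibroblasts. All genes called in ES cells numbered 632 in that fit, against 2 as reported. All genes called in fibroblasts numbered 210 in that fit, 2058 as reported, and 900 to 2609 on leaving out an array. Fibroblast counts of histone genes ran from 5 to 6 on leaving out an array. H2bc4 was called without fibroblast control array 3 (adjusted p = 0.0473). The replicate block gave 1 in brain and 9 in fibroblasts. Among differences of effects it gave 4 for fibroblasts minus ES cells, 2 for fibroblasts minus brain and 1 for brain minus ES cells. For these differences the block also paired the ES cell arrays. Quantile normalization gave 1 for fibroblasts minus ES cells. Leaving out 1 array gave 0 to 2 for fibroblasts minus ES cells, 0 to 2 for fibroblasts minus brain and 0 to 1 for brain minus ES cells. With the filter on dim genes, 11 histone genes were left between controls and 7 (brain minus ES cells), 9 (brain minus fibroblasts) and 8 (ES cells minus fibroblasts) were called, with fewer genes tested. The recomputed counts for differences of effects and filtered controls stand here without the share of all genes called. They describe the processing and are no result about the members. H4c9 in brain ran from -0.38 to 0.0482 on leaving out an array, the last without knockout array 2. The block called 12 of 26 S phase genes in fibroblasts, 12 lower and 0 higher, beside 7.03% and 10.3% of all genes. Other causes were not tested.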
